A study of Homo sapiens with 13 samples.

Results

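FOXA1 sites that were listed in both endometrial cancer cell lines of the study, but with a far higher signal in Ishikawa than in Hec1A, are described here. A shared pair was an Ishikawa peak and a Hec1A peak whose intervals had 1 bp or more in common. Among 54855 Ishikawa peaks and 13252 Hec1A peaks there were 7012 shared pairs, and no peak belonged to more than 1 pair. A pair was a member when its Hec1A count was below 7 tags per 10000000 and was at most 0.1 of its Ishikawa count, with chromosomes M and Y left out. The count is the number of mapped fragment ends in the peak per 10000000 such tags. This left 416 members, which is 5.93% of the shared pairs. The limit on the ratio alone took 581 pairs, or 8.29%. The members were thus chosen by both counts, and their difference is given as a description with no test.

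Ishikawa and Hec1A are established human lines from endometrial adenocarcinomas, and the labels name no genotype change and no treatment for either. FOXA1-bound DNA was recovered with 1 rabbit antibody and sequenced (ChIP-seq), in 6 ChIP and 2 input libraries of Ishikawa and 3 ChIP and 2 input libraries of Hec1A. The ChIP libraries of a line were pooled into 1 peak list, with 343739762 tags in Ishikawa and 143055568 in Hec1A, and with 2 library kits mixed in each pool. Counts cover 353 bp in Ishikawa and 254 bp in Hec1A, so the widths favour Ishikawa. Each value below therefore stands for 1 pool, and variation between libraries cannot be given. Positions are those of the build hg19.

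FOXA1 is a forkhead transcription factor that can bind its site in closed chromatin and make it accessible to other factors, for which it is called a pioneer factor. In hormone-responsive epithelia it marks enhancers that oestrogen, progesterone and androgen receptors use, and most of its sites lie away from promoters. Which of its many possible sites are occupied differs between cell types. A site that is strong in 1 line and barely listed in another can thus be a shared address with unequal occupancy, which the presence or absence of a peak does not show.

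The members spanned a far wider range in Ishikawa than in Hec1A. Their Ishikawa counts ran from 20.6 to 898.2 with a median of 63.1, a 43.6-fold range. Their Hec1A counts ran from 1.89 to 6.99 with a median of 4.16, a 3.70-fold range under the limit of the rule. The median member had 6.98% of its Ishikawa count in Hec1A, which is a 14.3-fold excess in Ishikawa, and the lowest had 0.513%. Ratios under 1% were found in 6 members, under 2% in 25 and under 5% in 117, while 91 members lay at 9% or more. Over all 7012 shared pairs the median was 28.3%, a 3.53-fold excess in Ishikawa, and 6.43% of pairs were higher in Hec1A. Unequal counts in this direction were thus the rule among shared pairs. With counts scaled to the tags in peaks of each list, in place of all mapped tags, 10 of the 416 members stayed within both limits.

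**Figure D1:**
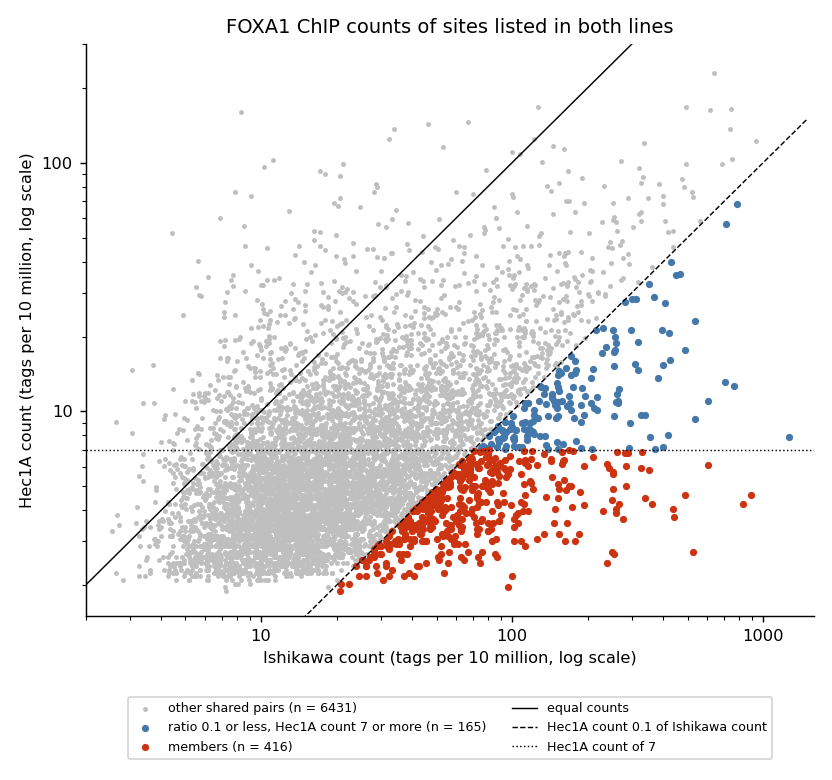
Each point is a shared pair, with its Ishikawa count on the x axis and its Hec1A count on the y axis, both in tags per 10000000 on log scales. The 416 members (red) fill the corner under the line of a ratio of 0.1 and a Hec1A count of 7, the 165 pairs that pass the ratio limit with a higher Hec1A count are blue, and the other 6431 pairs are grey.

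In tags, the Hec1A side of a member rested on 27 to 100 tags, with a median of 59.5, and the Ishikawa side on 708 to 30875. The counting error of Hec1A therefore sets the precision of each ratio. An exact 95% interval (Clopper-Pearson, on the tags of both lines) lay wholly at or under 10% in 240 of the 416 members (57.7%). The other 176 members have intervals that reach past the limit of the rule. These intervals cover counting error only, and repeated copies of a fragment would make them too narrow.

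The members stood near the top of the Ishikawa list and spread over the lower and middle part of the Hec1A list. By Ishikawa count, 388 of the 416 members (93.3%) were among the highest 10% of Ishikawa peaks, and the median member stood at the top 3.87%. By Hec1A count, 281 members (67.5%) were in the lower 50% of the Hec1A list, and the median member stood at the top 62.8%. The other pairs with a Hec1A count below 7 had a median at the top 63.4%, so the Hec1A ranks follow from the limit of the rule.

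The site of lowest ratio was chr2:187636567-187636919. It had a count of 831.0 in Ishikawa and 4.26 in Hec1A, which is 0.513% (95% interval 0.392% to 0.659%). Its fold over the surrounding 10000 bp, called the local fold here, was 186 in Ishikawa and 6.92 in Hec1A. Its Ishikawa neighbours were far weaker: of 7 other Ishikawa peaks within 100 kb the strongest had a count of 21.8. No other Hec1A peak lay within that distance. The peak centres of the 2 lines were 2 bp apart.

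The member of highest Ishikawa count was chr7:47078703-47079055, the sixth strongest Ishikawa peak of all. Its counts were 898.2 and 4.61, or 0.513% (0.397% to 0.654%). Here 9 other Ishikawa peaks lay within 100 kb. One of them, at chr7:47022419-47022771, had a count of 1061.6, lay 56.3 kb away and had no Hec1A partner. Another site of like ratio, chr14:90979892-90980244, had counts of 527.1 and 2.73, or 0.518% (0.368% to 0.707%), with Ishikawa neighbours of at most 34.7. These 3 sites differed by less than their counting intervals, and all 3 were 193-fold to 195-fold higher in Ishikawa.

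The next sites by ratio had somewhat higher values. On chr1:172291614-172291966 the counts were 439.7 in Ishikawa and 3.77 in Hec1A, or 0.857% (0.645% to 1.12%). On chr6:68874607-68874959 they were 435.8 and 4.05, or 0.929%. On chr3:60693804-60694156 they were 487.2 and 4.61, or 0.946%. These 3 intervals overlapped widely, and the first of them also overlapped that of the chr14 site, so no full order among the sites can be read.

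The site at chr9:38672191-38672543 differed from the others in its Hec1A peak. Its counts were 605.5 and 6.08, or 1.00% (0.804% to 1.24%). The centres coincided to the base, and its Hec1A local fold of 16.0 was the highest of all members. Its Hec1A tags were also repeated on fewer positions than expected, with a clonal fold of 1.26. The clonal fold is the expected over the observed number of tag positions, so values above 1 mark stacked tags.

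Sites of lower Ishikawa count reached ratios near 1% through very low Hec1A counts. On chr2:186994677-186995029 the counts were 238.2 and 2.45, or 1.03%. On chr16:16242540-16242892 they were 254.7 and 2.66, or 1.04%. On chr5:24547273-24547625 they were 250.5 and 2.73, or 1.09%, and the local folds of 127.7 and 4.10 gave the lowest ratio of local folds of any member, at 3.21%. Hec1A counts of this size lie near the lowest of all members, 1.89.

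The remaining members among the 10 of highest Ishikawa count had ratios between 1% and 2%. Counts at chr3:193902233-193902585 were 361.0 and 4.26, or 1.18% (0.903% to 1.52%). At chrX:23264120-23264472 they were 339.8 and 4.47, or 1.32% (1.01% to 1.68%). The chrX site had the highest fold over input of all members, 2635, with an input value at the floor of 0.5 tags. At chr13:99068686-99069038 they were 349.9 and 5.80, or 1.66% (1.32% to 2.06%), and the Hec1A peak was stacked, with a clonal fold of 1.65.

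**Figure D2:**
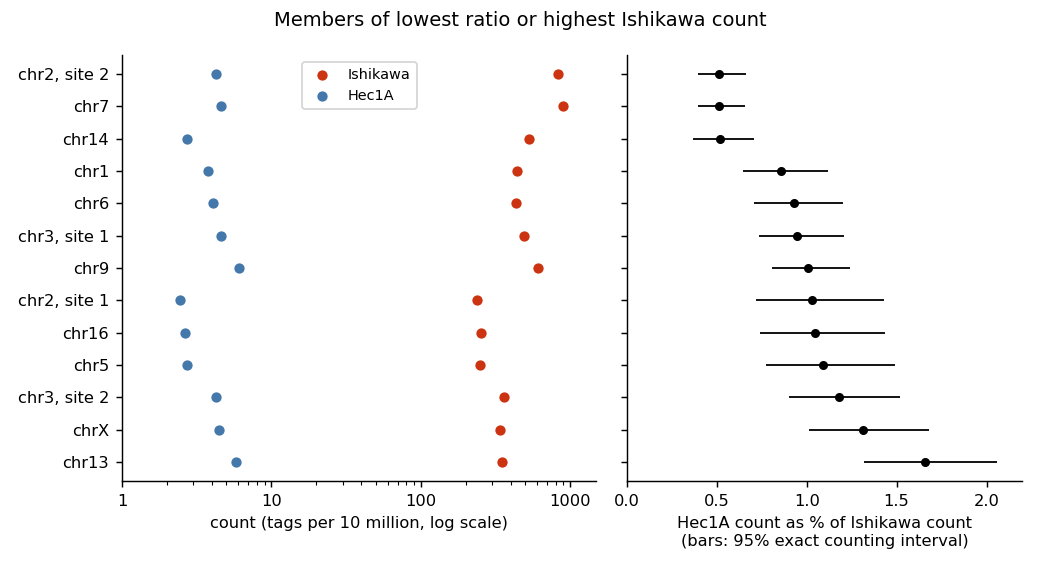
The left panel gives the counts of 13 members in Ishikawa (red) and Hec1A (blue) in tags per 10000000 on a log scale, and the right panel the Hec1A count as a percentage of the Ishikawa count with its exact 95% counting interval. The members are the 10 of lowest ratio and the 10 of highest Ishikawa count, with overlaps shown once, and the 3 lowest ratios are 0.513%, 0.513% and 0.518%, with intervals that reach 0.707%.

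At the other end, the last members within the ratio limit had intervals that overlapped those of the first pairs beyond it. The last 5 members had 9.93% to 10%, with chr6:28554995-28555347 at 23.8 and 2.38 and chr20:42368042-42368394 at 29.6 and 2.94 (7.11% to 13.5%). The first 5 pairs beyond had 10.02% to 10.09%, with chr8:117886898-117887250 at 49.5 and 4.96 (7.79% to 12.7%). At the Hec1A limit, the last 5 members had Hec1A counts of 6.92 to 6.99, and the first 5 excluded pairs all had 7.06. Those 5 included chr12:52513121-52513473, with counts of 370.5 and 7.06. The strongest Ishikawa peak of all, at chr17:41747442-41747794, had counts of 1267.5 and 7.90, or 0.623%, and was left out by its Hec1A count.

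Members made up a larger part of the Ishikawa list at counts of 50 and more than below, a difference that the rule favours. None of 44410 Ishikawa peaks below 20 was a member, since the rule there asks for a Hec1A count below 2. Of 7469 Ishikawa peaks from 20 to 50, 125 were members (1.67%). The ratio limit there lies below the Hec1A limit of 7, so the rule itself left less room for members. Their Hec1A counts ran from 1.89 to 4.89, and 1.89 was the lowest Hec1A count of all shared pairs. From 50 to 100 there were 201 members among 1925 peaks (10.4%), from 100 to 200 there were 58 among 755 (7.68%), from 200 to 400 there were 25 among 231 (10.8%), and from 400 there were 7 among 64 (10.9%). Listing in both lines rose alongside, from 28.0% of Ishikawa peaks at 20 to 50 to 65.6% from 400.

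The strongest Ishikawa sites thus covered every degree of sharing. Of the 64 Ishikawa peaks with a count of 400 or more, 22 had no listed Hec1A peak, 7 were members, 16 more had a ratio of 0.1 or less with a higher Hec1A count, and 19 had a higher ratio. The shared pairs among them had ratios from 0.513% to 35.8%, with a median of 8.29%. Across all bins from 50, the median Hec1A count of members stayed between 4.26 and 5.03, while that of all shared pairs rose from 9.16 to 42.7. The limit of 7 holds the first of these ranges down.

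**Figure D3:**
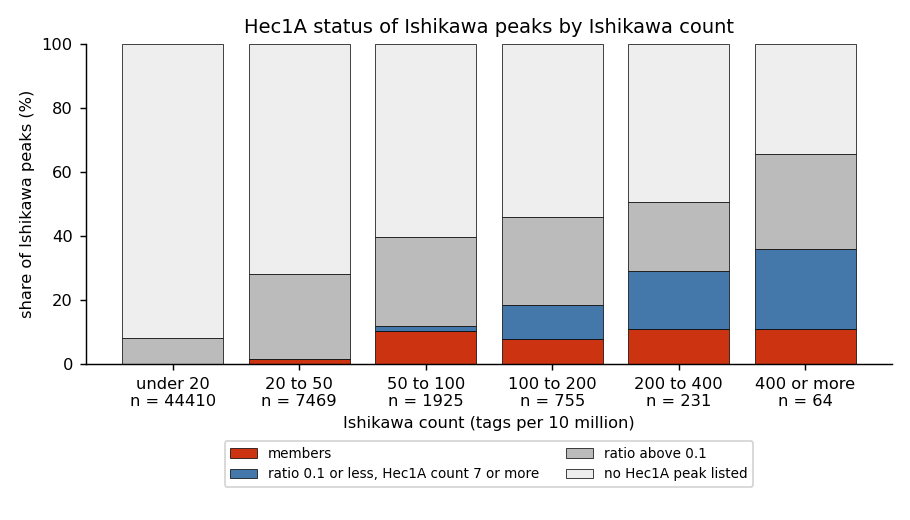
Bars divide the Ishikawa peaks of each range of counts (x axis, tags per 10000000) into members, pairs that pass the ratio limit with a Hec1A count of 7 or more, pairs with a ratio above 0.1, and peaks with no listed Hec1A peak (y axis, share in percent). Members make up 1.67% of peaks from 20 to 50 and between 7.68% and 10.9% in each higher range. From 20 to 50 the ratio limit lies below the Hec1A limit of 7 and leaves less room for members.

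The Hec1A peaks of the members had values close to those of other weak Hec1A peaks with an Ishikawa partner, apart from fewer stacked tags. The comparison was made with the 3995 other shared pairs of a Hec1A count below 7, whose median Hec1A count was 4.12 against 4.16 in the members. The median Hec1A local fold was 5.39 in members and 5.24 in those pairs. It was below 5 in 171 members (41.1%) and in 43.6% of those pairs, where the list itself required 4. The median Hec1A focus ratio, which is the share of tags placed around the centre as a bound point would place them, was 0.810 and 0.798. A Hec1A clonal fold above 1 was found in 20 members (4.81%) and in 10.1% of those pairs. All these measures come from the tags that the rule used, and peaks of 1 pool are not replicates, so no test is given.

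The Ishikawa peaks of the members were focused and of low clonality. They were set beside 2854 other shared pairs with Ishikawa counts in the members' range of 20.6 to 898.2, whose median Ishikawa count was 37.1, against 63.1 in members. The median Ishikawa focus ratio was 0.929 in members and 0.914 in those pairs, and the median local fold was 33.3 and 21.7. The Ishikawa clonal fold had a median of 0.760 and 0.820, and it exceeded 1 in 13 members (3.13%) and in 2.35% of those pairs. These traits were not particular to members. The 165 pairs within the ratio limit with a higher Hec1A count had a median Ishikawa count of 152.8. Their median focus ratio was 0.944 and their median clonal fold 0.640, with none above 1. Within the members the local fold rose from a median of 20.6 in the 25% of lowest Ishikawa count to 58.4 in the 25% of highest count. Their Hec1A local fold was 4.74 and 5.92 in the same groups of members.

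Within a member the Ishikawa peak was usually the sharper of the pair. The focus ratio was higher in Ishikawa in 385 of 416 members (92.5%), against 74.2% of the other pairs in the Ishikawa range. It was higher in Ishikawa in 32.5% of 252 near-equal pairs of that range, which are those with a ratio of 0.5 or more. Those pairs had a median Hec1A count of 24, against 4.16 in members. In the 3995 other pairs with a Hec1A count below 7 the share was 72.9%, at a median Ishikawa count of 14. Among members the median Ishikawa focus ratio rose from 0.9115 in the group of lowest Ishikawa count to 0.9485 in the highest. The sets were chosen by these counts, so the gap between their shares may be partly built in. The local fold, which contains the count that the rule used, was higher in Ishikawa in 415 members. The exception was chr6:27099972-27100324, with counts of 52.7 and 4.75 but local folds of 7.51 and 9.74. Its Ishikawa local background, which is the count divided by the local fold, was 7.02, against a median of 2.04 over all members.

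The 2 lists placed the centres of most members close together. Peak centres were a median of 14 bp apart in members, and within 50 bp in 353 of 416 (84.9%). In the other pairs with a Hec1A count below 7 the median was 21 bp, and in the near-equal pairs it was 6 bp. The Hec1A interval lay wholly inside the Ishikawa interval in 351 members (84.4%). In 24 members (5.77%) the centres were more than 100 bp apart, and the largest distance was 293 bp.

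**Figure D4:**
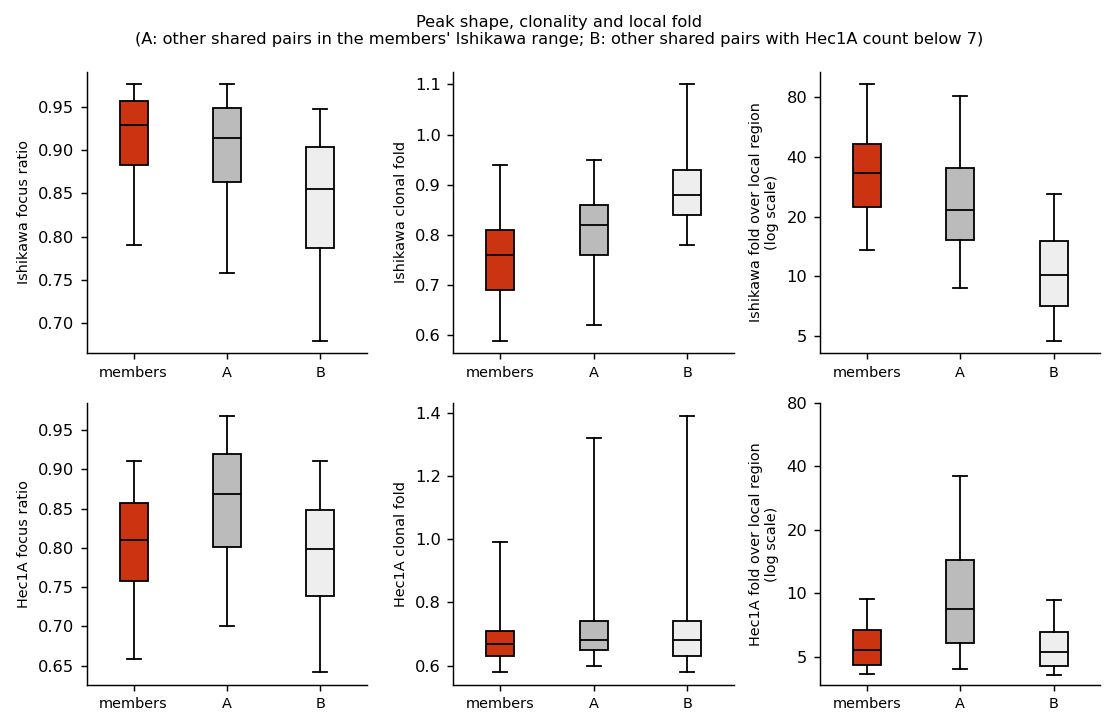
Boxes give the median and quartiles, and whiskers the 5th to 95th percentile, of focus ratio, clonal fold and local fold (log scale) in Ishikawa (upper row) and Hec1A (lower row). Members are red, A is the 2854 other shared pairs in the members' Ishikawa range, and B is the 3995 other shared pairs with a Hec1A count below 7. In the Hec1A panels the members lie close to B.

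The Ishikawa input was the one deposited measure whose libraries took no part in the rule, although the list itself had been filtered on it. Members had a median of 7 input tags per peak, with a range from 0.5 to 20. The other pairs in the members' Ishikawa range also had a median of 7, and the Ishikawa-only peaks of that range had 7. The fold over input, unlike the input itself, contains the Ishikawa tags that chose the members. It was 20 or more in 344 members (82.7%), in 59.2% of the other pairs in the Ishikawa range and in 32.9% of all shared pairs. Hec1A input is not analysed here, since the Hec1A list gives no input column.

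Folds over the local region were less unequal than counts. The median local background was 2.04 tags per 10000000 in Ishikawa and 0.721 in Hec1A at the members. The Hec1A local fold was a median of 17.5% of the Ishikawa local fold, while the counts stood at 6.98%. Judged by local folds at the same limit of 0.1, 70 of the 416 members (16.8%) passed, where 97 of all 7012 shared pairs (1.38%) did. The Hec1A list required a local fold of at least 4, which bounds these ratios from below. Only sites of high Ishikawa local fold could pass, and the members' median was 33.3. Local folds also contain the counts that chose the members, so the gap between these shares is partly built in. Of the ratios of lowest value named above, those on chromosomes 2 (the site of count 831.0), 7, 14, 1, 6, 3, 16, 5, X and 13 stayed below 10% by local fold. The site on chromosome 9 stood at 10.7% and the second site on chromosome 2 at 10.6%.

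Chromosome 12 held the most members. It had 57 of 416 (13.7%), but 5.45% of all shared pairs. Of its 382 shared pairs 14.9% were members (95% Wilson interval 11.7% to 18.8%) against 5.93% over all chromosomes. The interval treats peaks as independent, which neighbouring peaks of 1 pool are not, so it is no test. On this chromosome the Ishikawa background was raised: the median local background of Ishikawa peaks was 1.98 tags per 10000000, where the other autosomes lay between 1.23 and 1.41, and input averaged 7.88 tags per peak. The Hec1A local background there was 0.751. The members on chromosome 12 had a median Ishikawa count of 57.7 and a median Hec1A count of 4.12, against 64.1 and 4.19 in the other members. Their median input was 10 tags against 7, and their median Ishikawa local fold was 22.3 against 36.2.

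With each line's counts divided by the median local background of the chromosome, an adjustment chosen after the data were seen, chromosome 12 no longer stood out. It then held 18 of 383 pairs within the limits, or 4.71% of its shared pairs. By local folds it held none of 72 pairs with a Hec1A count below 7. That count cannot decide whether the lead was absent, because the Hec1A list required a local fold of at least 4. A ratio of local folds of 0.1 or less was thus open only to sites of high Ishikawa local fold. Ishikawa local folds of the chromosome 12 members had a median of 22.3 and reached 53.7, against 36.2 and 207.3 in the other members. The lead of chromosome 12 was absent after the division by chromosome background. It remained when local background or input was subtracted, but these settings cannot decide the question, because they took little from the Ishikawa counts. The chromosome 12 members had a median local background of 2.51 beside a median count of 57.7, and a median fold over input of 23.3. With the local background of each peak taken from its count, chromosome 12 held 71 of 549 pairs (12.9%). With the input count taken from the Ishikawa count it held 48 of 372 (12.9%). Among the 118 pairs with a ratio of 0.05 or less chromosome 12 held 8 (6.78%), and among the 10 pairs left by scaling to tags in peaks it held 0.

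The adjustment moved the other chromosomes in both directions. On chromosome 17, with a Hec1A background of 1.01, 7 of 349 shared pairs were members (2.01%), and 14 (4.01%) after the adjustment. On chromosome 3, with a Hec1A background of 1.03, 21 of 449 were members (4.68%), and 30 (6.68%) after it. On chromosome X, where the Ishikawa background was only 0.717, 6 of 221 were members (2.71%), and 14 (6.33%) after it. Chromosome 5, with a Hec1A background of 0.946, had 28 of 331 before and after. Chromosomes 16 and 22, with low Hec1A backgrounds of 0.690 and 0.691, went from 7 to 7 and from 6 to 5. Chromosome 21 had no member among 69 shared pairs (upper Wilson bound 5.27%, with peaks treated as independent), and 1 after the adjustment. Over the remaining chromosomes the share of members ran from 2.62% on chromosome 11 to 9.19% on chromosome 13.

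**Figure D5:**
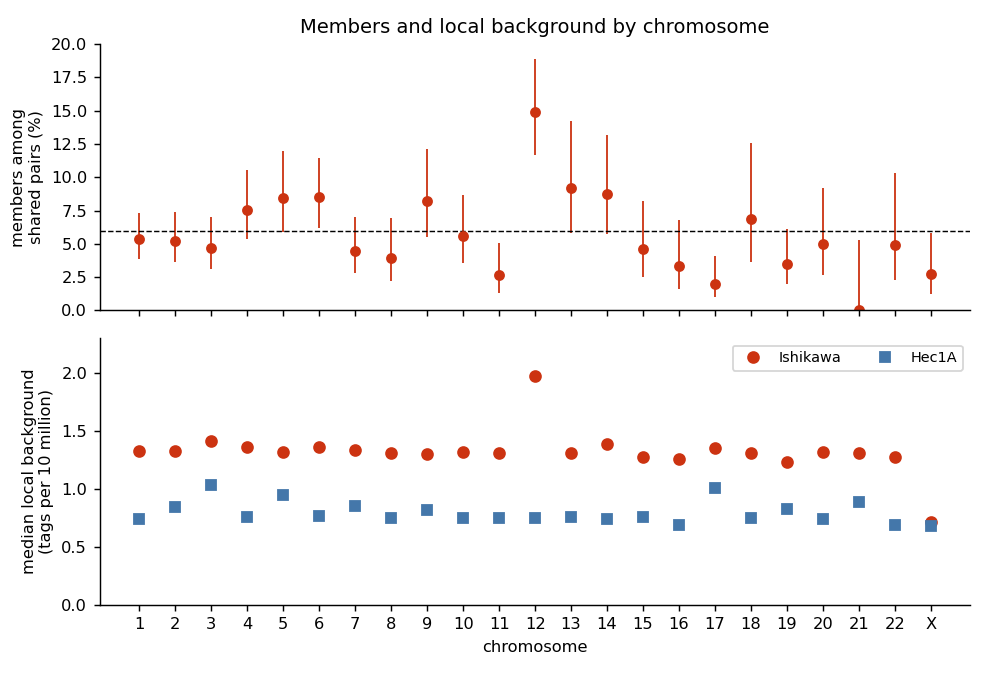
The upper panel gives the share of each chromosome's shared pairs that are members, with 95% Wilson intervals, and the dashed line marks the 5.93% over all chromosomes. The lower panel gives the median local background of all peaks of each list in tags per 10000000, where chromosome 12 has the highest Ishikawa value at 1.98 and chromosome X the lowest at 0.717.

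Most members lay apart from other members. Only 3 couples of members lay within 10 kb of each other, and no window of 10 kb held 3. The first couple spans chr9:14096544-14098438, with Ishikawa counts of 66.5 and 51.6 and Hec1A counts of 2.73 and 4.12. The second spans chr6:28949934-28953646, with Ishikawa counts from 34.6 to 79.9 and Hec1A counts from 2.94 to 4.89. The third spans chr12:21819766-21825453, with Ishikawa counts from 73.0 to 83.2 and Hec1A counts from 2.59 to 5.66. Within 100 kb there were 14 couples, which took in 28 members (6.73%). Couples were not counted in the comparison sets. The nearest shared pair within 100 kb was a member more often for members (11.7%) than for the other pairs in the Ishikawa range (5.48%).

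Members were also the leading Ishikawa site of their surroundings in most cases. Another Ishikawa peak lay within 10 kb of 141 members (33.9%) and within 100 kb of 412 (99.0%), and the median distance to the nearest was 14.1 kb. Over all shared pairs the shares were close to these, at 35.0% and 97.0%. In 310 of 416 members (74.5%) no Ishikawa peak within 100 kb was stronger. This was so for 65.6% of the other pairs in the Ishikawa range, whose counts were lower. Among 6738 Ishikawa-only peaks of the same range, 44.9% had another Ishikawa peak within 10 kb.

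The low ratio was often not shared by the nearest shared pair. Ishikawa peaks with no listed Hec1A peak have no ratio and are left out of this comparison. Shared pairs with an Ishikawa count below 20 could hardly have a low ratio, since their lowest was 10.65% and their median 40.6%. The listing thus favours a higher ratio at the neighbour. Of the 416 members, 196 had another shared pair within 100 kb, and the nearest of these had a median ratio of 22.9%, with quartiles of 13.3% and 38.0%. The nearest pair was itself a member in 23 cases (11.7%). It had a ratio of 0.5 or more in 34 cases (17.3%) and a higher count in Hec1A than in Ishikawa in 13. For the other pairs in the Ishikawa range, the nearest pair had a median ratio of 27.9% and was a member in 5.48% of 1588 cases.

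Some neighbouring sites leaned in opposite directions. The following were picked for their contrast after the values were seen. The member at chr1:24885629-24885981 had counts of 56.1 in Ishikawa and 3.36 in Hec1A, and 18.1 kb away the pair at chr1:24867525-24867877 had 16.3 and 48.8. The member at chr20:49435020-49435372 had counts of 56.9 and 3.08, and 56.8 kb away the pair at chr20:49378233-49378585 had 17.2 and 46.1. The member at chr19:39322472-39322824 had 56.4 and 5.38, and 32.1 kb away the pair at chr19:39290339-39290691 had 19.8 and 51.3. In each of these 3 cases Hec1A had the far higher count at the neighbour and Ishikawa at the member.

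Hec1A peaks with no Ishikawa partner lay near members as well. One or more was found within 100 kb of 151 members (36.3%), against 48.1% of the other pairs in the Ishikawa range and 58.3% of the near-equal pairs. In 92 members (22.1%) such a peak had a higher Hec1A count than the member, which the low Hec1A counts of members favour. At chr7:80804781-80805133, a member with counts of 115.2 and 6.01, a Hec1A-only peak of count 34.3 and clonal fold 0.660 lay 19.6 kb away. At chr13:76278750-76279102, a member with counts of 87.1 and 5.94, a Hec1A-only peak of count 22.1 lay 0.777 kb away, with stacked tags at a clonal fold of 1.45. Next to the strong member at chr3:193902233-193902585 a Hec1A-only peak of count 25.9 and clonal fold 1.32 lay 62.5 kb away. These 3 were chosen after the values were seen, for the highest counts of the Hec1A-only peaks.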

How the data were processed

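FOXA1 ChIP-seq of 13 libraries was used as 2 deposited peak lists. The submitters' processing notes name hg19, HOMER 4.7.2, SAMtools 1.3.1 and Bowtie 1.1.2. The authors called peaks with findPeaks on pooled tags (per the file headers, thresholds of 88 tags in Ishikawa and 32 in Hec1A, which the capped score meets and the recovered tag number of some peaks does not), required a 4-fold excess over 10000 bp around the peak and allowed at most a 2-fold deficit of unique positions. A 4-fold excess over pooled input is recorded for Ishikawa alone. Peak widths were 353 and 254 bp.

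The deposited count is a signal in tags per 10000000. The deposited focus ratio is a fraction, the deposited folds and clonal fold are ratios, and the deposited findPeaks score is a capped tag number. The deposited p-value columns were not used. These are the authors' values, and folds describe peaks within 1 list.

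Tag numbers were recovered as count times total tags over 10000000 and rounded, which left at most 0.0708 tags to a whole number in the members' Hec1A counts. Intervals are exact (Clopper-Pearson) or Wilson, at 95%, from SciPy 1.17.1. Overlap, rule and interval were tested on simulated lists. No test between the lines was possible, as each has 1 pool. The members, the comparison sets and the lists were chosen with earlier results of these data known. Named pairs are the 10 of lowest ratio, the 10 of highest Ishikawa count, 5 on each side of the ratio limit, and windows of 10 kb with 3 or more members. No hg19 annotation or sequence was used, so the planned gene names and motifs are not reported.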

Additional observations from a re-analysis of the deposited data

How the results depend on the processing

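Of 68 values computed under other settings, 48 stayed within 1.5 times for a count or within the 95% interval of a share or median. The number of members depended most on how the lines are scaled. It was 10 with counts scaled to the tags in peaks of each list, and 72 with local folds in place of counts, of which 70 were members, and the cause was not tested. It was 218 with counts per bp of peak width (median ratio 4.80%), 240 with an upper counting bound of at most 0.1 (5.10%) and 187 with a Hec1A count below 4 (6.51%). Limits of 0.05 and 0.15 gave 118 and 937 pairs, with medians of 3.31% and 10.6%. A local fold of at least 8 in both lists left 55 members, whose median input was 8 tags. With the local background taken from each count there were 549 pairs, which included all 416 members, at a median ratio of 8.33%. At 50 kb in place of 10 kb, 91.1% of members had another Ishikawa peak nearby. Stricter overlap, fold over input, clonality, and subtraction of input left between 353 and 415 members. Settings on peak width, local and regional background, chromosome 12 and counting bound were chosen after seeing the data. The motif alternatives were not run, and no library could be left out. No paired analysis was possible because each deposited list pools all libraries of a line.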

Other observations

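Stronger Ishikawa-only sites lay beside some members. Of 416 members, 63 (15.1%) had an Ishikawa peak within 100 kb that was stronger and had no Hec1A partner. Most Ishikawa peaks had no Hec1A partner, and this share was not computed for other shared pairs. It is therefore not given as a trait of members. Besides the site on chromosome 7 already named, the strongest such neighbours were at chr12:20068286-20068638 (count 313.4), which lay 79.6 kb from a member of count 81.5, and at chr4:142774472-142774824 (count 307.0), 51.0 kb from a member of count 61.4. At chr11:92949867-92950219 an Ishikawa-only peak of count 210.3 lay 2.98 kb from a member with counts of 108.6 in Ishikawa and 5.59 in Hec1A. In these places Hec1A listed the weaker of the neighbouring Ishikawa sites and not the stronger one.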
